A study of Mus musculus with 6 samples.

Results

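The genes of the early secretory pathway were described here in mouse liver, from the signal recognition particle and the Sec61 channel to the COPII and COPI vesicle coats and the p24 proteins. Members were chosen by symbol alone, as protein-coding genes of the deposited table named Srp9, Srp14, Srp19, Srp54, Srp68, Srp72, Sec61 to Sec63, Ssr1 to Ssr4, Spcs, Sec11, Sar1, Sec13, Sec16, Sec22 to Sec24, Sec31, the Cop coat subunits and Tmed. The rule found 56 of 23631 genes. RNA was measured by sequencing in liver of male C57BL/6J mice, an inbred strain, in 3 refed libraries and in 3 from mice fasted for 48 h. No label gives a genotype, transgene or age. The sample labels call the first group re-fed, whereas the treatment protocol speaks of mice on normal feeding, so an earlier fast in that group is not settled. The comparison asks which of these transcripts differ between the livers of the 2 groups.

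Proteins that are to be secreted or placed in membranes carry a signal sequence, which the signal recognition particle binds as it leaves the ribosome. The ribosome then docks at the Sec61 channel of the endoplasmic reticulum (ER), the TRAP complex helps the chain into the channel, and signal peptidase cuts the signal off. COPII coats bud vesicles from ER exit sites towards the Golgi, COPI coats return escaped proteins and cargo receptors, and p24 proteins select cargo in both directions. Hepatocytes secrete most plasma proteins, among them albumin, clotting factors and the apolipoproteins of lipoprotein particles, and use this route for all of them.

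Total counts were 29574528, 32988426 and 32627672 in refed replicates 1, 2 and 3 and 36026753, 35820246 and 34170489 in fasted replicates 1, 2 and 3, with 18154 to 18699 genes detected per library. Fasted replicate 3 stood apart from its group. The chi-square per gene was 214 and 192 between it and fasted replicates 1 and 2, against 32.5 between those and 24.5 to 44.5 among refed libraries. The labelled tissue showed in its markers: 6 hepatocyte genes summed to 84450 to 101200 counts scaled to a common library size (CPM) in refed and 102300 to 128300 CPM in fasted libraries. Of those 6 genes 3 rose and 2 fell. Plasma and B cell markers, which would mark another secretory cell type, summed to 1.80 to 2.5 CPM in refed and 2.04 to 3.53 CPM in fasted libraries, and the tested ones, Igj and Ighm, did not pass (edgeR adjusted p = 0.3 and 0.621). T cell markers summed to 0.227 to 0.872 CPM and 0.42 to 0.652 CPM. Of the 3 pancreas markers, Cela1 held nearly all of the 10.02 to 13.5 CPM and 2.47 to 3.51 CPM and fell, and Cpa1 and Ctrb1 were at or near 0. Kupffer cell markers summed to 49.2 to 65.8 CPM and 14.3 to 70.3 CPM, endothelial markers to 54.2 to 100.7 CPM and 64.4 to 113 CPM, and stellate cell markers to 103 to 124 CPM and 179 to 261 CPM. Of the stellate cell markers Dcn, at 63.2 to 72.7 CPM and 155 to 222 CPM, rose, while Lrat and Col3a1 fell. Bile duct markers summed to 26.0 to 44.1 CPM and 15.8 to 27.4 CPM, and red cell markers to 157 to 202 CPM and 81.7 to 137 CPM, in refed and fasted libraries. Of the bile duct markers Spp1, at 21.6 to 38.5 CPM and 9.50 to 18.7 CPM, held most of the sum and fell. Sox9 and Epcam rose, and Krt19 and Krt7 did not pass. Of the red cell markers Alas2 fell, from 89.5 to 122.6 CPM in refed to 14.1 to 22.2 CPM in fasted libraries, while the haemoglobin genes Hbb-b1 and Hba-a1 did not pass, at log2 fold changes of 0.42 and 0.40. Called lower were 1 of 6 Kupffer cell, 2 of 5 stellate cell, 1 of 5 bile duct and 1 of 3 red cell markers, and called higher 2 of 6 endothelial, 1 of 5 stellate cell and 2 of 5 bile duct markers. The part of these cell types in the results was not tested. In bulk liver RNA, fewer cells of a type and less RNA per cell cannot be told apart.

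All 4 genes of the TRAP complex and the alpha 1, beta and gamma subunits of the Sec61 channel fell in fasted liver, and so did several coat genes whose close relatives did not pass the test. Of 55 tested members, 22 fell and 4 rose in fasted liver at an adjusted p under 0.05 (edgeR, quasi-likelihood, adjusted over 13248 genes by the Benjamini-Hochberg method), that is 40.0% and 7.3%. Over all tested genes 30.2% were called lower and 29.2% higher, 59.4% in all. The median log2 fold change of the members, fasted over refed, was -0.22, against -0.00 over all tested genes. The fall was at least 1 on the log2 scale for 10 of the 55 members (18.2%), a share near that of all tested genes (17.1%). Tmed6 was not tested, with at most 4 reads in any library. Member reads summed to 5036, 4806 and 5069 CPM in the refed libraries and to 4236, 4450.3 and 3698 CPM in the fasted ones, so the groups did not overlap and fasted replicate 3 was the lowest. In CPM values the fasted libraries all lay below the refed ones for 25 of the 55 members and all above for 5, against 34.4% and 32.8% of all tested genes, 67.2% in all. The authors' deposited table has 24 of 56 members lower and 4 higher at an adjusted p under 0.05, against 19.6% and 19.8% of the 22432 genes with a value there. Those 22432 genes had no count filter, whereas 55 of the 56 members passed the one used here, so the bases differ.

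Without fasted replicate 3, 24 members fell and 10 rose, and all genes then had 32.7% called lower and 31.6% higher. No member call was lost on leaving it out, and Copb1, Copz2, Sec23a, Srp54c, Tmed4 and Tmed8 were gained as higher and Sec16b and Tmed1 as lower. Scaling by library totals in place of TMM factors moved the median of all tested genes by -0.21 on the log2 scale and the share of higher among all calls from 49.2% to 36.2%. Under that scaling 32 of the 55 members were called lower and 2 higher, against 5074 and 2873 of all 13248 tested genes.

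**Figure D1:**
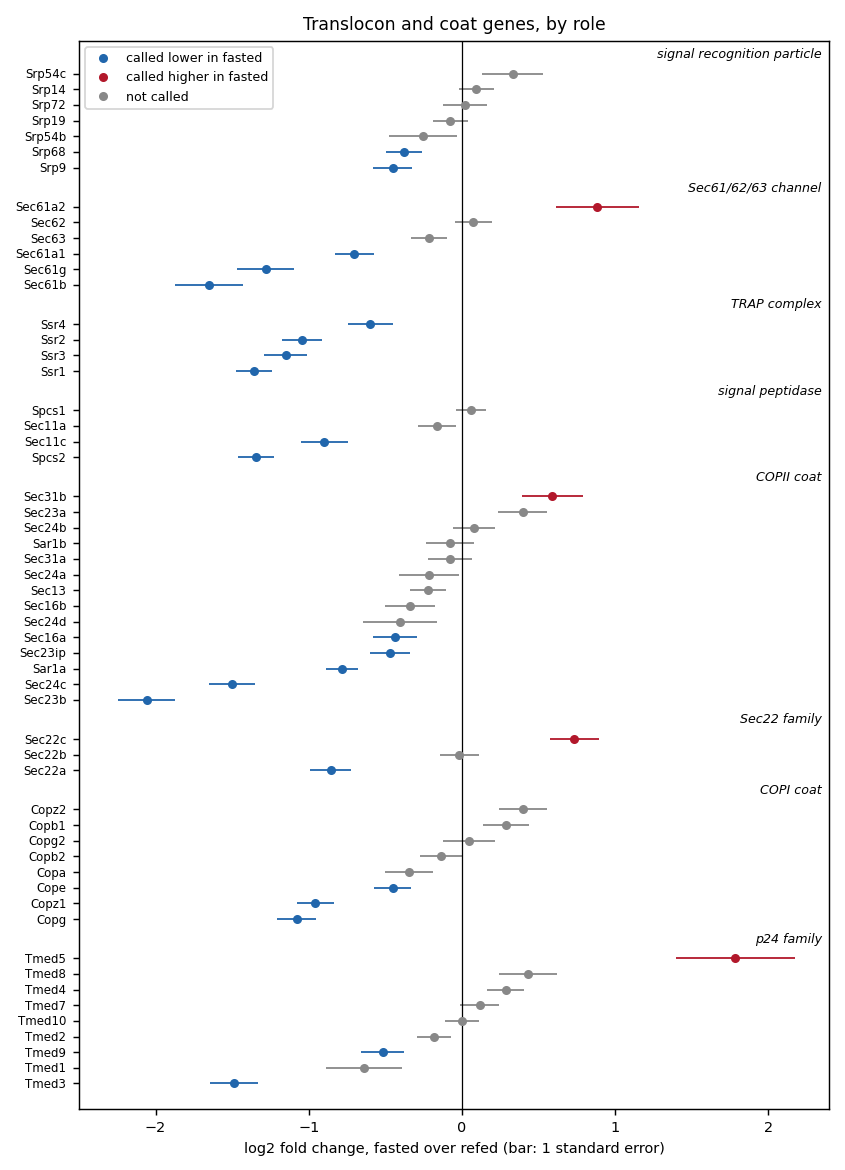
Log2 fold change (fasted over refed) of the 55 tested members, grouped by role, with bars of 1 standard error (SE) and colours for calls at an adjusted p under 0.05 in edgeR's quasi-likelihood test. All 4 TRAP genes lie to the left of 0, and Sec23b at -2.06 and Tmed5 at 1.79 are the extremes.

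**Figure D2:**
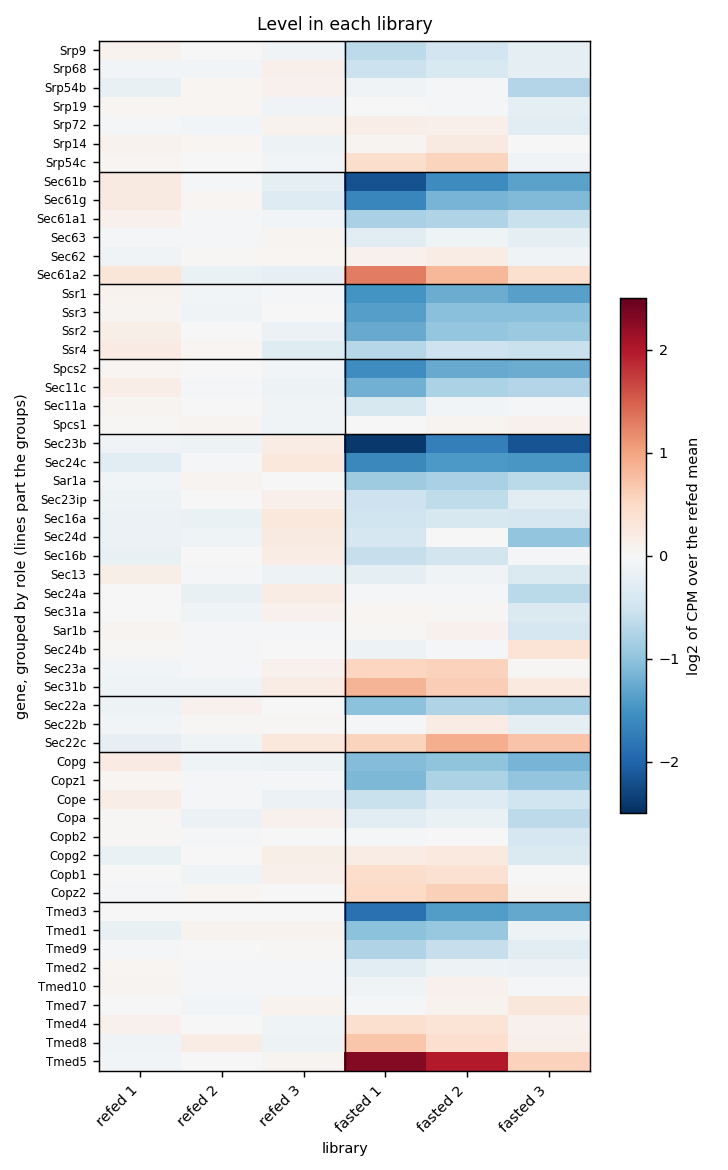
Level of each tested member in each of the 6 libraries, as log2 of its CPM over the refed mean, with members in rows by role and libraries in columns. The fasted columns are lower throughout the TRAP rows, and fasted replicate 3 differs from the other fasted libraries most in Tmed5.

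Promoter sequence is shown for the members that hold an ER stress element, a choice made with the calls known. They include Sec23a, the relative of Sec23b that was not called lower. No link between a motif and the calls was tested. Promoters of 49 of the 56 members were matched in RefSeq (GRCm38.p6), each from 250 bases before to 50 bases after the gene's start, and read on both strands. The element TGACGTGG is known as UPRE and bound by the stress factors ATF6 and XBP1. It stood in 5 of 49 members (10.2%), against 0.714% of all 27025 genes with a promoter and 0.967% of 9927 tested ones. A gene was counted where any of its promoter entries matched. The shorter TGACGT, the core of the cyclic AMP response element, stood in 14 members (28.6%), against 8.37% of all those genes and 13% of the tested ones. Of these 14 members 6 fell and the other 8 did not pass the test. The still shorter ACGTG stood in 31 members (63.3%), against 21.8% and 29.0%, and of the 31 members 12 fell, 1 rose and 18 did not pass. UPRE contains both shorter motifs, so these counts overlap. The longer ER stress elements are ERSE (CCAAT and CCACG spaced by 9 bases) and ERSE-II (ATTGG and CCACG spaced by 1 base). They matched no member promoter, and were found for 0.137% and 0.044% of all genes with a promoter. Each line below gives 60 bases before and 20 bases after the start of the gene, on the gene's strand, with the match in capitals; a reverse match reads CCACGTCA. The Sec23b stretch is added beside that of its relative Sec23a, and its capitals mark TGACGT.
Sec16b, chr1:157506736-157506815, plus strand: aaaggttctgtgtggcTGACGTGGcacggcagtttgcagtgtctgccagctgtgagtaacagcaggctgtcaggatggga
Sec24d, chr3:123267436-123267515, plus strand: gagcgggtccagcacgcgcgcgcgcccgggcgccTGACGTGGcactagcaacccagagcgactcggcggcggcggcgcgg
Copb1, chr7:114254661-114254740, minus strand: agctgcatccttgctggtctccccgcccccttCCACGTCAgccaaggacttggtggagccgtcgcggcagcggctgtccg
Copb2, chr9:98563671-98563750, plus strand: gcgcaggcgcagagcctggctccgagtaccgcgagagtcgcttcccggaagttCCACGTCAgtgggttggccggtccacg
Sec23a, chr12:59011998-59012077, minus strand: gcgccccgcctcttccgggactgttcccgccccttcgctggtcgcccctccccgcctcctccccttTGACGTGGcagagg
Sec23b, chr2:144556169-144556248, plus strand: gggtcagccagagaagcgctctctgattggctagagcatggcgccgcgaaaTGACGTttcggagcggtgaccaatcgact

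In edgeR's test 29 of all 55 tested members and 5382 of 13248 tested genes were not called at an adjusted p under 0.05. All 5 members with UPRE missed that threshold. Sec23a was 1 of the 5 with an unadjusted p under 0.05, and DESeq2 called it (adjusted p = 0.0462). Without fasted replicate 3, Sec23a and Copb1 were called higher, Sec16b was called lower, and Sec24d and Copb2 were not called. In fasted replicate 3, Copb1, Copb2, Sec23a and Sec24d had their lowest fasted level and Sec16b its highest. A match describes the letters in this window and does not show a bound site.

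The signal recognition particle, which delivers ribosomes to the ER, had 2 of its 7 tested members called lower (28.6%, against 30.2% of all tested genes). Its summed reads were 297 ± 7.19 CPM in refed and 270.2 ± 15.8 CPM in fasted libraries (SD, n = 3). Srp9, which with Srp14 slows the ribosome, lay at 62.3, 58.2 and 55.3 CPM in refed and 37, 42.2 and 49.4 CPM in fasted livers, in the order of replicates 1, 2 and 3 here and in what follows. The groups did not overlap, although refed replicate 3 and fasted replicate 3 were close. Srp9 fell by 0.45 on the log2 scale (SE 0.13, edgeR adjusted p = 0.0156). Srp68, which binds the particle's RNA together with Srp72, lay at 59.3, 59 and 67.6 CPM in refed and 42.9, 47.7 and 52.6 CPM in fasted livers, again without overlap, and fell by 0.38 (SE 0.12, edgeR adjusted p = 0.0227). The Srp9 call was lost without refed replicate 1 (edgeR adjusted p = 0.0542) or fasted replicate 1 (0.0552). The Srp68 call was lost without refed replicate 3 (edgeR adjusted p = 0.0717), fasted replicate 1 (0.081) or fasted replicate 2 (0.0583). The partners of both, Srp14 at a log2 fold change of 0.09 and Srp72 at 0.02, did not pass, nor did Srp19 at -0.08. Srp54, the GTPase that binds the signal sequence, is present as near-identical copies whose reads the counting may split, so both values are uncertain. The copy that the table calls Srp54c (now Srp54a) had the highest log2 fold change of the particle, 0.33 (SE 0.20, edgeR adjusted p = 0.186), and was called without fasted replicate 3 (0.50, edgeR adjusted p = 0.0236). It lay at 3.78, 3.66 and 3.49 CPM in refed and 4.95, 5.37 and 3.44 CPM in fasted livers, and the groups overlapped through fasted replicate 3. The copy called Srp54b (now Srp54c) was at -0.25 and did not pass.

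The Sec61 channel was lower in fasted liver in its alpha 1, beta and gamma subunits, with 3 of the 6 channel genes called lower and 1 higher. Sec61a1, the pore-forming alpha subunit (ENSMUSG00000030082, chromosome 6, 88453595 to 88468899 in mm9), lay at 269, 243 and 239.8 CPM in refed and 143, 148 and 171 CPM in fasted livers. All fasted libraries were below all refed ones, and it fell by 0.70 on the log2 scale, or 1.63-fold (SE 0.13, edgeR adjusted p = 0.00176). Sec61b, the beta subunit (ENSMUSG00000053317, chromosome 4, 47487530 to 47496114 in mm9), lay at 41.8, 35.3 and 30.4 CPM in refed and 7.95, 12.1 and 14.2 CPM in fasted livers, and fell 3.14-fold (edgeR log2 change -1.65, SE 0.22, adjusted p = 0.000459). Sec61g, the gamma subunit that clamps the pore, fell 2.43-fold (edgeR log2 change -1.28, SE 0.19, adjusted p = 0.000618), from 30.8 ± 5.77 CPM to 12.7 ± 2.4 CPM (SD, n = 3). Sec62 and Sec63, membrane proteins that assist the channel with some precursors and work with the chaperone BiP, did not pass. Sec62 was at a log2 fold change of 0.07 and Sec63 at -0.22, although all fasted libraries were below all refed ones for Sec63. The authors' deposited table has Sec63 lower (-0.22, deposited adjusted p = 0.0286), and its locus overlaps a lincRNA, Gm17442, and another non-coding RNA gene. The second alpha subunit gene, Sec61a2, had few reads and lay at 2.59, 1.86 and 1.82 CPM in refed and 5.07, 3.73 and 2.74 CPM in fasted livers. It rose by 0.88 (SE 0.27, edgeR adjusted p = 0.022), but the call was lost without refed replicate 2 (edgeR adjusted p = 0.0804), refed replicate 3 (0.0808) or fasted replicate 1 (0.0779), and its locus overlaps that of Nudt5. Reads of the 6 genes summed to 659 ± 15 CPM in refed and 503 ± 20.8 CPM in fasted libraries (SD, n = 3).

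All 4 genes of the TRAP complex fell, against 30.2% of all tested genes, and their summed reads went from 676 ± 41.9 CPM to 317 ± 33.8 CPM (SD, n = 3). Ssr1, the alpha subunit (ENSMUSG00000021427, chromosome 13, 38063270 to 38086059 in mm9), lay at 155, 138 and 143 CPM in refed and 51.8, 61.5 and 57.1 CPM in fasted livers. It fell 2.56-fold (edgeR log2 change -1.36, SE 0.12, adjusted p = 4.58e-05), with the groups far apart. Ssr3, the gamma subunit and the most read gene of the complex, lay at 378, 341 and 363 CPM in refed and 139, 174 and 174 CPM in fasted livers and fell 2.22-fold (edgeR log2 change -1.15, SE 0.14, adjusted p = 0.000236). Ssr2, the beta subunit, fell 2.06-fold (edgeR log2 change -1.05, SE 0.13, adjusted p = 0.000285). Ssr4, the delta subunit, had the smallest fall, at 98.5, 88.7 and 69.3 CPM in refed and 51.9, 59.8 and 57.7 CPM in fasted livers (edgeR log2 change -0.60, SE 0.15, adjusted p = 0.00779). Its refed replicate 3 was nearest to the fasted libraries, which still lay below it.

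Signal peptidase was lower in an accessory and a catalytic subunit and not called in the others. Spcs2, an accessory subunit (ENSMUSG00000035227, chromosome 7, 106987513 to 107007403 in mm9), lay at 96.4, 94.8 and 89.8 CPM in refed and 31.9, 38.9 and 39.9 CPM in fasted livers. It fell 2.54-fold with no overlap (edgeR log2 change -1.34, SE 0.12, adjusted p = 5.22e-05). Spcs1, another accessory subunit, lay at 55.7, 57.4 and 51.5 CPM in refed and 54.8, 57.5 and 59 CPM in fasted livers, and its groups overlapped (edgeR log2 change 0.06, SE 0.10, adjusted p = 0.637); its locus overlaps that of Glt8d1. The enzyme has 2 alternative catalytic subunits. Sec11c lay at 30.7, 26.3 and 24.8 CPM in refed and 11.8, 15.7 and 16.4 CPM in fasted livers and fell by 0.90 (SE 0.16, edgeR adjusted p = 0.00137). Sec11a lay at 56.7, 54.8 and 50.9 CPM in refed and 40.9, 51.7 and 52.6 CPM in fasted livers, with overlapping groups (edgeR log2 change -0.16, SE 0.13, adjusted p = 0.289). The Sec11a locus overlaps that of Nmb and a pseudogene.

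**Figure D3:**
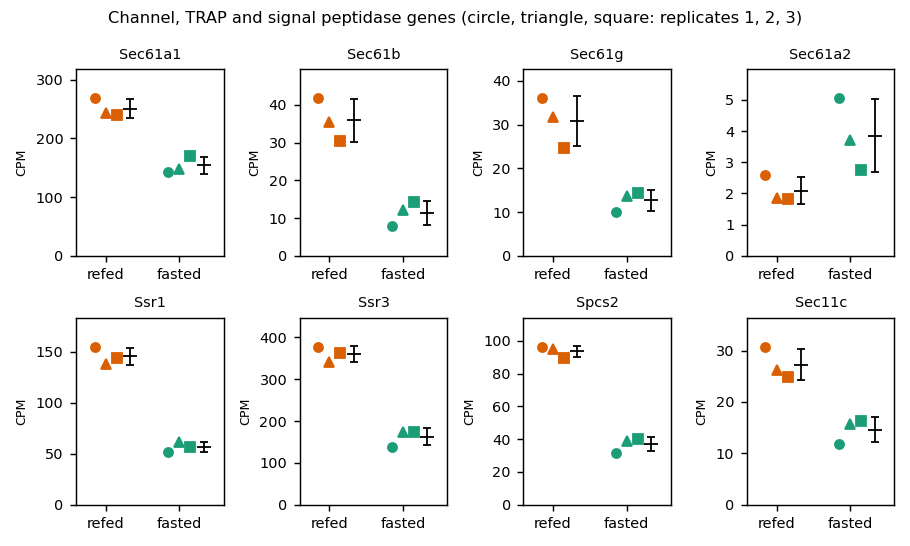
CPM of 8 genes of the channel, the TRAP complex and signal peptidase in each library, with replicates 1, 2 and 3 as circle, triangle and square, and mean ± SD (n = 3) beside them. Ssr1 and Spcs2 show wide gaps between refed and fasted libraries, and Sec61a2 is the gene that lies higher in fasted libraries.

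COPII is built in part from paralogs, related genes whose products can take the same place in the coat. Of 14 members 5 fell (35.7%), 1 rose (7.1%) and 8 did not pass, against 30.2% and 29.2% of all tested genes called lower and higher. The summed reads were 1320 ± 105 CPM in refed and 1046 ± 119.7 CPM in fasted libraries (SD, n = 3). Sec23b, an inner coat subunit that switches off the Sar1 GTPase (ENSMUSG00000027429, chromosome 2, 144381965 to 144416485 in mm9), had the lowest log2 fold change of all members. It lay at 72.5, 70.045 and 87.6 CPM in refed and 14.5, 23.4 and 17.3 CPM in fasted livers, so the fasted libraries were all far below the refed ones. The fall was 4.17-fold (edgeR log2 change -2.06, SE 0.19, adjusted p = 6.51e-05). In humans, mutations of SEC23B cause an inherited anaemia.

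Sec23a, which has the same place in the coat (ENSMUSG00000020986, chromosome 12, 60059370 to 60113004 in mm9), lay at 85.9, 86.7 and 96.7 CPM in refed and 129.8, 134 and 91 CPM in fasted livers. Fasted replicates 1 and 2 were above all refed libraries and fasted replicate 3 was among them. Its log2 fold change was 0.40 (SE 0.16, edgeR adjusted p = 0.0616), and without fasted replicate 3 it was 0.56 (edgeR adjusted p = 0.000942). Levels of the Sec23 pair were compared on the authors' normalized signal per kb of gene length, of which Sec23a held 63% ± 1.35 and 90.2% ± 2.36 in the refed and fasted groups (SD, n = 3). The share was 63.3%, 64.3% and 61.6% in refed replicates 1, 2 and 3 and 92.9%, 89.2% and 88.4% in fasted replicates 1, 2 and 3, with no overlap. An exact two-sided permutation test gave p = 0.1, the smallest that 3 against 3 libraries allow (0.133 adjusted over 16 shares in 11 families). In this share fasted replicate 3 lay beside fasted replicate 2. The length used moves the size of the share: on counts alone it was 54% and 86.4%, and per kb of the longest GENCODE coding transcript 44.3% and 81.1%. The locus of Sec23a overlaps a lincRNA, Gm17529.

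Sec24 proteins form the cargo-binding face of the inner coat, and 1 of their 4 genes fell, against 30.2% of all tested genes. Sec24c (ENSMUSG00000039367, chromosome 14, 21493543 to 21514072 in mm9) lay at 98.8, 115 and 142 CPM in refed and 38.7, 43.7 and 43.2 CPM in fasted livers and fell 2.83-fold with no overlap (edgeR log2 change -1.50, SE 0.15, adjusted p = 8.99e-05). The Sec24c locus overlaps a lincRNA, 6230400D17Rik. Sec24a lay at 143, 126 and 163 CPM in refed and 141, 142 and 90.1 CPM in fasted livers. Sec24b lay at 20.8, 20.009 and 20.019 CPM in refed and 18.7, 19.997 and 25.5 CPM in fasted livers, and Sec24d at 84.7, 88.1 and 109.95 CPM in refed and 70.6, 95.3 and 47.9 CPM in fasted livers. In Sec24a and Sec24d fasted replicate 3 was the lowest of all libraries and in Sec24b the highest, and groups overlapped in all of them. Their log2 fold changes of -0.22, 0.08 and -0.40 (edgeR adjusted p = 0.362, 0.65 and 0.181 for Sec24a, Sec24b and Sec24d) did not pass. Without fasted replicate 2 Sec24d was called lower (-0.66, edgeR adjusted p = 0.0308). The Sec24d locus overlaps that of Mettl14, and the Sec24a locus a snoRNA, SNORA48. The share of Sec24c in the signal per kb of the 4 genes was 22.7% ± 2.25 and 10.6% ± 1.58 in the refed and fasted groups (SD, n = 3, exact two-sided permutation p = 0.1, 0.133 adjusted).

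Sar1 is the GTPase that starts the coat. Sar1a (ENSMUSG00000020088, chromosome 10, 61143058 to 61156043 in mm9) lay at 87.4, 95.9 and 92.7 CPM in refed and 49.9, 52.7 and 57.5 CPM in fasted livers and fell by 0.79 on the log2 scale (SE 0.11, edgeR adjusted p = 0.000384). Sar1b, whose human gene is mutated in chylomicron retention disease, lay at 209.6, 194 and 194 CPM in refed and 204, 215 and 149 CPM in fasted livers. Its groups overlapped, with fasted replicate 3 lowest (edgeR log2 change -0.08, SE 0.16, adjusted p = 0.699). Of the pair's signal per kb Sar1a held 12.3% ± 0.949 and 8.08% ± 2.06 in the refed and fasted groups (SD, n = 3, exact two-sided permutation p = 0.1, 0.133 adjusted).

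Sec16 proteins organise the exit sites and Sec13 and Sec31 form the outer coat. Sec16a lay at 117, 116 and 156 CPM in refed and 91.9, 99.1 and 96.6 CPM in fasted livers, without overlap, and fell by 0.44 (SE 0.14, edgeR adjusted p = 0.0275). That call was lost without refed replicate 3 (edgeR adjusted p = 0.0735), fasted replicate 1 (0.0772) or fasted replicate 2 (0.0566). Sec16b lay at 82.3, 92.1 and 106 CPM in refed and 62.5, 68.2 and 90.5 CPM in fasted livers, and fasted replicate 3 overlapped the refed group (edgeR log2 change -0.34, SE 0.16, adjusted p = 0.106). Without fasted replicate 3 it was called lower (-0.51, edgeR adjusted p = 0.00481). The Sec16b locus overlaps an antisense gene, Gm15486. Sec23ip, which binds Sec23 at exit sites, fell by 0.47 (SE 0.13, edgeR adjusted p = 0.0154), from 23.7 ± 2.04 CPM to 17.1 ± 2.27 CPM (SD, n = 3). The Sec23ip call was lost without refed replicate 3 (edgeR adjusted p = 0.0541) or fasted replicate 2 (0.0538). Sec31a, the main outer coat gene, lay at 177, 164 and 190.5 CPM in refed and 183, 182 and 138 CPM in fasted livers, with overlap (edgeR log2 change -0.08, adjusted p = 0.669), and Sec13 was at -0.22 (edgeR adjusted p = 0.138). The scarce Sec31b lay at 3.44, 3.43 and 4.17 CPM in refed and 6.63, 5.65 and 4.35 CPM in fasted livers, and it rose by 0.59 (SE 0.20, edgeR adjusted p = 0.032). This call did not hold without refed replicate 1, refed replicate 2, fasted replicate 1 or fasted replicate 2 (edgeR adjusted p = 0.0977, 0.113, 0.108 and 0.0726).

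Of the 3 Sec22 genes 1 fell, 1 rose and 1 did not pass, that is 33.3% lower and 33.3% higher, against 30.2% and 29.2% of all tested genes. Sec22b, a SNARE that fuses vesicles between ER and Golgi, lay at 59.8, 63.7 and 63.7 CPM in refed and 61.1, 71 and 53.1 CPM in fasted livers, with overlapping groups (edgeR log2 change -0.02, SE 0.13, adjusted p = 0.922). Its relatives are less studied. Sec22a lay at 12.6, 14.8 and 13.9 CPM in refed and 6.78, 8.23 and 7.8 CPM in fasted livers, all fasted below all refed, and fell by 0.86 (SE 0.14, edgeR adjusted p = 0.000903). Sec22c lay at 11.4, 12.1 and 15.7 CPM in refed and 19.3, 24.5 and 21.3 CPM in fasted livers, all fasted above all refed, and rose by 0.73 (SE 0.16, edgeR adjusted p = 0.00444). Of the signal per kb of the 3 genes, Sec22a held 22.2% ± 1.10 in refed and 12.2% ± 1.23 in fasted livers, and Sec22c 17.1% ± 2.24 and 28.3% ± 1.98 (SD, n = 3, exact two-sided permutation p = 0.1 each, 0.133 adjusted).

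COPI had 3 of 8 members called lower (37.5%, against 30.2% of all tested genes) and the other 5 not called. Copa, the alpha subunit (ENSMUSG00000026553, chromosome 1, 174012660 to 174052461 in mm9), lay at 229, 202 and 240.4 CPM in refed and 187, 199 and 143 CPM in fasted livers. All fasted libraries were below all refed ones, fasted replicate 2 only just, and the difference did not pass (edgeR log2 change -0.35, SE 0.16, adjusted p = 0.0866). The Copa locus overlaps that of Ncstn. The gamma subunit Copg, now called Copg1 (ENSMUSG00000030058, chromosome 6, 87837808 to 87863589 in mm9), lay at 139, 111 and 110.1 CPM in refed and 57, 59.8 and 54 CPM in fasted livers and fell 2.11-fold (edgeR log2 change -1.08, SE 0.13, adjusted p = 0.000204). Its paralog Copg2, whose locus overlaps that of Mest, lay at 22.1, 25.1 and 27.5 CPM in refed and 28.3, 29.4 and 19.5 CPM in fasted livers, with overlap (edgeR log2 change 0.05, SE 0.17, adjusted p = 0.834). The Copg locus overlaps a lincRNA, Gm16723. The zeta subunits are a further pair of paralogs. Copz1 (ENSMUSG00000060992, chromosome 15, 103103342 to 103130293 in mm9) lay at 149, 141 and 140.4 CPM in refed and 66, 83.2 and 72.3 CPM in fasted livers and fell 1.94-fold (edgeR log2 change -0.96, SE 0.12, adjusted p = 0.000299). Copz2 lay at 11.3, 12.2 and 11.7 CPM in refed and 16.5, 17.7 and 12.3 CPM in fasted livers, all fasted above all refed, fasted replicate 3 only just (edgeR log2 change 0.40, SE 0.16, adjusted p = 0.0527). Without fasted replicate 3 Copz2 was called higher (0.54, edgeR adjusted p = 0.00253).

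Per kb, Copg held 76.9% ± 4.07 of the signal of its pair in refed and 61% ± 4.26 in fasted livers, and Copz1 79.5% ± 1.05 and 60.4% ± 4.57 (SD, n = 3, exact two-sided permutation p = 0.1 each, 0.133 adjusted). Cope, the epsilon subunit, fell by 0.45 (SE 0.12, edgeR adjusted p = 0.0132), from 99.95 ± 11.1 CPM to 73.0 ± 6.20 CPM (SD, n = 3). The Cope call was lost without refed replicate 1 (edgeR adjusted p = 0.0521) or fasted replicate 1 (0.0502). The beta subunit Copb1 lay at 116, 108 and 127 CPM in refed and 159, 153 and 117 CPM in fasted livers, and beta prime, Copb2, at 146, 141 and 141 CPM in refed and 138, 144 and 107 CPM in fasted livers. Both overlapped, with fasted replicate 3 the lowest fasted library, and neither passed (log2 fold change 0.29 and -0.14, edgeR adjusted p = 0.126 and 0.413). Without fasted replicate 3 Copb1 was called higher (0.42, edgeR adjusted p = 0.00664). The delta subunit, Arcn1, lies outside the naming rule and was at -0.32 (edgeR adjusted p = 0.112).

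The p24 family, single-span membrane proteins that cycle between ER and Golgi as cargo receptors, had 2 of 9 tested members called lower and 1 higher. That is 22.2% and 11.1%, against 30.2% and 29.2% of all tested genes. Tmed5 (ENSMUSG00000063406, chromosome 5, 108535385 to 108561639 in mm9) had the highest log2 fold change of all members. It lay at 112, 117 and 124 CPM in refed and 577, 465 and 176 CPM in fasted livers, so every fasted library was above every refed one, but fasted replicate 3 was much nearer to the refed group than the others were. The rise was 3.45-fold (edgeR log2 change 1.79, SE 0.39, adjusted p = 0.00554), and 2.15 on the log2 scale without fasted replicate 3 (edgeR adjusted p = 6.06e-07). The Tmed5 locus overlaps that of Mtf2. Tmed3 (ENSMUSG00000032353, chromosome 9, 89594041 to 89599881 in mm9) lay at 29.959, 29.4 and 29.4 CPM in refed and 8.16, 11.2 and 12.3 CPM in fasted livers, and fell 2.80-fold with no overlap (edgeR log2 change -1.49, SE 0.16, adjusted p = 0.000122). Tmed9 fell by 0.52 (SE 0.14, edgeR adjusted p = 0.0131), from 98.9 ± 2.80 CPM to 69.2 ± 12.4 CPM (SD, n = 3).

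Tmed2 and Tmed10, p24 proteins that bind COPI, did not pass, at log2 fold changes of -0.18 and 0.00. For Tmed2 all fasted libraries were below all refed ones, and the authors' deposited table has it lower (-0.18, deposited adjusted p = 0.0135). Tmed7, whose locus overlaps that of Ticam2, was at 0.12 and did not pass. Tmed1 at -0.64 (edgeR adjusted p = 0.0526), Tmed4 at 0.29 (0.0688) and Tmed8 at 0.43 (0.0778) did not pass. All of them were called without fasted replicate 3 (edgeR adjusted p = 0.00027, 0.0108 and 0.0164), and Tmed1 was also called by DESeq2 (adjusted p = 0.0338) and limma-voom (0.0313). The locus of Tmed1 overlaps that of Dnm2, and the locus of Tmed4 an rRNA gene, n-R5s67. The family's summed reads were 814 ± 12.2 CPM in refed and 1049 ± 176 CPM in fasted libraries, and without Tmed5 they were 697 ± 13.6 CPM and 643 ± 36.9 CPM (SD, n = 3).

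**Figure D4:**
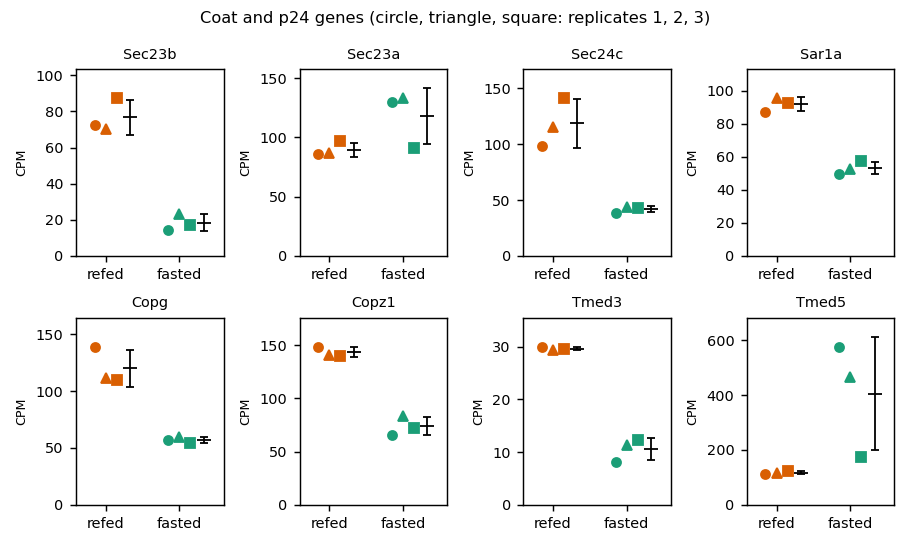
CPM of 8 coat and p24 genes in each library, with replicates 1, 2 and 3 as circle, triangle and square, and mean ± SD (n = 3) beside them. Sec23b and Tmed3 are lower in every fasted library, Sec23a overlaps through fasted replicate 3, and Tmed5 in fasted replicate 3 lies at 176 CPM against 465 and 577 CPM in the others.

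**Figure D5:**
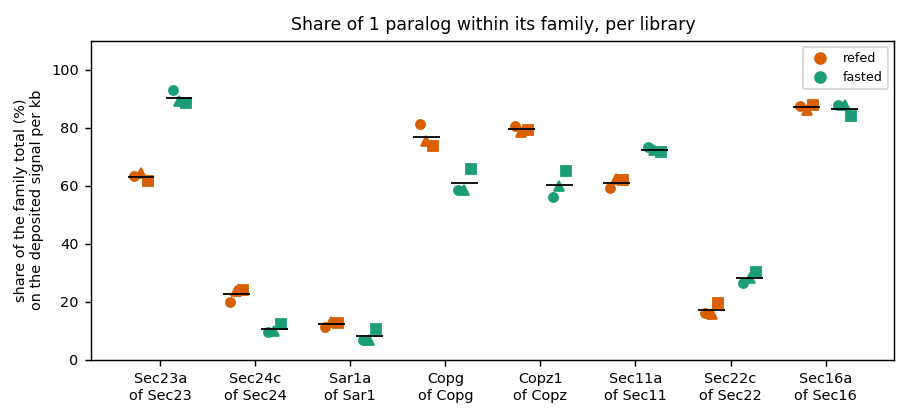
Share of 1 paralog from each of 8 families in the normalized signal per kb of its family (percent), in refed and fasted libraries side by side, with replicates 1, 2 and 3 as circle, triangle and square and a line at the group mean. Sec23a lies at 63% in refed and 90.2% in fasted livers, and Copz1 at 79.5% and 60.4%, with no overlap.

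The other 9 of the 16 shares are given here. Sec11a held 61.1% ± 1.59 of the signal per kb of the Sec11 pair in refed and 72.4% ± 0.741 in fasted livers, Sec61a1 99.1% ± 0.12 and 97.4% ± 0.974 of the Sec61a pair, and Sec31a 97.6% ± 0.137 and 96.3% ± 0.301 of the Sec31 pair (SD, n = 3, exact two-sided permutation p = 0.1 each, 0.133 adjusted). Copb1 and Copb2 are different subunits, and Copb1 held 42.8% ± 2.03 and 50.2% ± 1.13 of their sum, with the same p. Sec24b held 19.5% ± 2.21 and 27.3% ± 8.01 of the Sec24 signal, also with p = 0.1 by the exact test. The difference of 7.87 percentage points in Sec24b was 3.25 without fasted replicate 3, 3.21 on counts and 3.38 per kb of the longest GENCODE coding transcript. The exact p was 0.3 for Sec24a, 0.6 for Sec22b and 0.8 each for Sec24d and Sec16a (0.369, 0.686 and 0.8 adjusted), whose groups overlapped. The Sec24a difference of 4.6 points depended on the length, at 9.44 points on counts and 8.37 per kb of the longest GENCODE coding transcript, without overlap in either (exact two-sided permutation p = 0.1, 0.123 adjusted, for each). It was 1.89 without fasted replicate 1 and 7.99 without fasted replicate 3. The size of other differences also moved with the length: on counts that of Sar1a was -9.17 in place of -4.17 points and that of Copz1 -9.77 in place of -19.1, and per kb of the GENCODE transcript that of Sec22a was -5.40 in place of -9.99 and that of Sec22c 5.63 in place of 11.2. Without fasted replicate 3 the differences of Sec22b, Sec24d and Sec16a changed sign, from -1.26, -0.46 and -0.65 to 0.49, 1.68 and 0.61 points.

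Genes that work with these proteins were taken from a list of 85 pathway partners, of which 33 of 83 tested fell, 18 rose and 32 did not pass, with a median log2 fold change of -0.22. That is 39.8% lower and 21.7% higher, against 30.2% and 29.2% of all tested genes. The lowest were Ostc and Magt1, subunits of the oligosaccharyltransferase that glycosylates chains at the channel, at -2.44 and -1.94, and Bet1, a SNARE of ER to Golgi transport, at -1.89 (edgeR adjusted p = 3.41e-05, 4.58e-05 and 0.000275). The highest called were Bcap29, an ER membrane protein, at 1.38, Bet1l, a Golgi SNARE related to Bet1, at 1.25, and Trappc4, a subunit of the TRAPP tether, at 1.2 (edgeR adjusted p = 0.000393, 7.29e-05 and 0.000125). The receptor of the signal recognition particle had its alpha subunit Srpr higher (0.39, edgeR adjusted p = 0.0199) and its beta subunit Srprb lower (-0.96, edgeR adjusted p = 0.000182). The Srpr call was lost without refed replicate 1, 2 or 3 (edgeR adjusted p = 0.0554, 0.109 and 0.0655) and without fasted replicate 1 (0.0529). Its log2 fold change was then 0.41, 0.35, 0.37 and 0.36. Preb, the exchange factor that loads Sar1, fell by 0.74 (edgeR adjusted p = 0.0023).

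Of 13 genes of ER stress and secretory control (transcription factors, stress sensors and the proteases Mbtps1 and Mbtps2 that release some of the factors), 5 fell, 3 rose and 5 did not pass. That is 38.5% lower and 23.1% higher, against 30.2% and 29.2% of all tested genes. Xbp1, a stress factor that drives secretory genes once its RNA is spliced, lay at 357, 347 and 239 CPM in refed and 172, 196 and 201 CPM in fasted livers, and fell by 0.73 (SE 0.18, edgeR adjusted p = 0.0075). The counts do not tell spliced from unspliced Xbp1. The ER stress sensors Ern1 and Eif2ak3 were lower, at -1.33 and -1.06, as was the factor Creb3l2, at -1.18 (edgeR adjusted p = 0.00317, 0.000251 and 0.000667). Creb3l3, a liver factor held in the ER membrane, lay at 291, 303 and 322 CPM in refed and 742, 705 and 373 CPM in fasted livers. It rose by 0.99 (edgeR adjusted p = 0.0096), or 1.25 without fasted replicate 3, which was the fasted library nearest to the refed group. Atf4 rose by 1.58 and Creb3 by 0.47 (edgeR adjusted p = 0.00018 and 0.00811).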

How the data were processed

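The authors' table of genes held 6 liver libraries measured by RNA sequencing. It has raw counts per gene, a signal scaled by library, and that signal per kb of gene length, per the file headers. The authors' own comparison (log2 fold change, p-value and adjusted p-value) was deposited with them. The submitters' processing notes name the build mm9 and the tools TopHat2 2.0.10, Bowtie2 2.1.0, HTSeq 0.5.4p3 and DESeq2 1.0.19, without roles. With the strand setting of the counting not given in the sources used here, counts of overlapping genes and near-identical copies are uncertain.

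The members, role groups, partner and factor lists and cell type markers were chosen with earlier results of these data known. Spcs3 has the biotype antisense in the table and so lies outside the rule, and Mia3, Cel, Pnlip and Amy2a5 were not analysed here. Values in each library are given for Sec61a1, Sec23b and Copa, for the highest and lowest log2 fold change of each role group and for paralog families. Of partners and factors, the 3 highest and 3 lowest called are named, with Arcn1, Preb, Srpr, Srprb, Xbp1 and Creb3l3; other names were chosen after their values were seen.

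The tests used edgeR 4.0.16 under R 4.3.3. The function filterByExpr (minimum count of 10) kept 13248 genes and removed 10383. TMM factors, robust glmQLFit and glmQLFTest with the group as the only term, and Benjamini-Hochberg adjustment over all tested genes were used, with calls at an adjusted p under 0.05. The procedure was also run on simulated counts with few changed genes, equal rises and falls and the same dispersion for every gene. That setting has no outlying library, so the run does not show how the procedure handles these data. CPM use TMM-scaled library sizes, and each SE is the size of the log2 fold change over the root of its F statistic. Paralog shares use the deposited signal per kb. The deposited gene lengths were 0.780 times the longest GENCODE coding transcript in the median over 56 members, from 0.100 to 2.38 times, so shares depend on the length used. Nothing in the labels says that libraries came from separate mice, so p-values measure only the spread among these libraries, and that spread may be technical. The alternatives were DESeq2 1.42.0, limma-voom (limma 3.58.1), other scaling factors and filters, glmTreat against 0.5, the replicate block, each library left out and other lengths.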

Additional observations from a re-analysis of the deposited data

How the results depend on the processing

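No member that was called changed sign under any of the 15 alternatives, whereas counts moved. With library totals as scaling, members called higher numbered 2, COPII higher 0 and channel higher 0, COPI lower 5, COPII lower 8, p24 lower 4 and partners higher 10. Of all 13248 tested genes 2873 were then higher and 5074 lower. The medians there were -0.44 for members, -0.46 for COPI, -0.49 for COPII, -0.23 for Sec22, -0.67 for the channel, -1.31 for TRAP, -0.21 for p24, -0.74 for signal peptidase, -0.29 for the signal recognition particle and -0.43 for partners, against a shift of -0.21 in all tested genes. With a mean of at least 5 CPM, 8699 genes were tested, of which 2865 were higher and 2807 lower. Of 51 members tested there, 2 were higher, with COPII higher 0 and channel higher 0. The medians were -0.36 for members and -0.73 for the channel. Fewer genes were tested there and the scaling was computed anew, and which of these moved the medians was not tested. With glmTreat against a log2 change of 0.5, a stricter test by construction, 2338 of all genes were higher and 2591 lower, with members higher 1 and lower 14, COPII higher 0 and lower 3, Sec22 higher 0, channel higher 0, p24 lower 1, the signal recognition particle lower 0, partners higher 4 and upstream factors lower 3. DESeq2 gave COPI higher 1 and COPII higher 2, and RLE factors COPI higher 1. The cause of the moves under DESeq2, RLE factors and library totals was not tested. Leaving out 1 library gave 2 to 10 members higher with medians from -0.29 to -0.19. For COPII it gave 0 to 2 higher and 3 to 6 lower with medians from -0.34 to -0.17, and for COPI 0 to 2 higher with medians from -0.32 to -0.11. It gave 0 to 1 higher and 0 to 2 lower for the signal recognition particle, 0 to 1 higher for the channel, 1 to 3 higher for p24, 10 to 19 higher for partners and 3 to 5 higher for upstream factors. The share of Sec24d in its family, -0.46 percentage points on the signal per kb, was 2.09 on counts and 3.85 per kb of the longest GENCODE coding transcript, a setting chosen after seeing the data. Each share was also computed with 1 library left out, again chosen after seeing the data: that of Sec24d then ranged from -2.63 to 1.68, of Sec22b from -2.58 to 0.49 and of Sec16a from -1.31 to 0.61 points. With the replicate block, 3558 genes were higher and 3782 lower, 3 members were higher and 24 lower, and COPII higher numbered 0; Tmed1 and Sec16b were gained (edgeR adjusted p = 0.0225 and 0.0473) and Sec31b and Srpr lost (0.0685 and 0.0566). Libraries of equal number deviated with correlations of -0.06, -0.03 and -0.10, and no library correlated best with its own number. The labels name nothing that they share, and so few libraries cannot tell whether they share more than a number. Among tested members, Sec61a2, Sec31b, Tmed8 and the Srp54 copies lay under 10 CPM in every library.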

Other observations

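Spcs3, the remaining accessory subunit of signal peptidase, has the biotype antisense in the deposited table and was therefore left outside the member rule. Its row held 92.5, 87.1 and 91.3 CPM in refed replicates 1, 2 and 3 and 43.9, 49.8 and 53.9 CPM in fasted replicates 1, 2 and 3, with no overlap. It fell by 0.88 on the log2 scale (SE 0.11, edgeR, quasi-likelihood, Benjamini-Hochberg adjusted p = 0.000303). Whether these reads come from the coding gene or from an antisense transcript was not tested, because the sources used here do not say how strand was handled.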
